A study of Mus musculus with 12 samples.

Results

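Mesothelial cells form the single sheet of flattened cells that covers the visceral fat pads, and 10 genes known as their markers were followed here through epididymal white adipose tissue (eWAT), the fat pad attached to the epididymis. The genes, Msln, Upk3b, Upk1b, Wt1, Krt8, Krt18, Krt19, Lrrn4, Gpm6a and Bnc1, were taken by symbol from the deposited table of 25232 genes, and all 10 were among the 15597 genes with a CPM (reads scaled to the library total) of at least 0.5 in at least 3 libraries, the level required for testing. The tissue was sequenced whole from C57BL/6 mice, in 12 libraries of 20973140 to 25606629 reads. The TKO mice are labelled TET KO, and the series title places the loss of TET proteins, the enzymes that oxidise 5-methylcytosine in DNA, in adipocytes. The deleted exons and the line that drives the deletion are not given in the labels, nor are the animals' age or the length of the diets. The groups were HFD_TKO (TET KO on a high-fat diet), HFD_WT (wild type on the same diet), ND_TKO (TET KO on a normal diet) and ND_WT (wild type on a normal diet), with 3 biological replicates each.

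The mesothelium secretes the fluid film that lets abdominal organs slide, and it is an epithelium of mesodermal origin, so it carries keratins together with mesenchymal genes. It arises from cells marked by Wt1, and Wt1 is also expressed in part of the progenitors of visceral fat. Mesothelin, named after the tissue, and the uroplakins Upk3b and Upk1b are surface proteins that adipocytes, macrophages and endothelium are not known to make. In bulk tissue a lower CPM of such a gene can mean fewer mesothelial cells in the sampled piece or less RNA per cell. As CPM is a share of the library total, it can also mean more RNA of other cells. These cannot be told apart.

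Tet1, Tet2 and Tet3 do not check the labels, since counts summed over all exons of a gene also hold any transcript that a deletion leaves and RNA of the other cells of the pad. Tet1 was higher in TKO on both diets (adjusted p = 0.010 on HFD and 0.019 on ND), and neither Tet2 nor Tet3 passed the test in these comparisons. TKO stands here for the libraries so labelled.

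Some libraries stood apart in these genes. HFD_TKO replicate 1 held the lowest value of all 12 libraries for each of the 10 genes, and ND_TKO replicate 1 held the lowest of its group for each of the 10. The 10 genes summed to 52.5 CPM in HFD_TKO replicate 1, against 254 and 222 CPM in HFD_TKO replicates 2 and 3. The mean of replicates 2 and 3 exceeded replicate 1 by 2.87-fold (Wt1) to 16.0-fold (Krt18) in HFD_TKO, and by 1.38-fold (Wt1) to 3.72-fold (Krt18) in ND_TKO. A gap of more than 1 on the log2 scale of CPM + 1 was found for 10 of 10 members in HFD_TKO and for 4 of 10 in ND_TKO, against 1.32% and 0.904% of all genes tested. Separately, 4 libraries, 1 in each group, had more than 2 CPM of the epithelial gene Epcam, as described with the keratins, and are called Epcam-high below. The median change of the members in each comparison is given with and without these libraries.

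**Figure D1:**
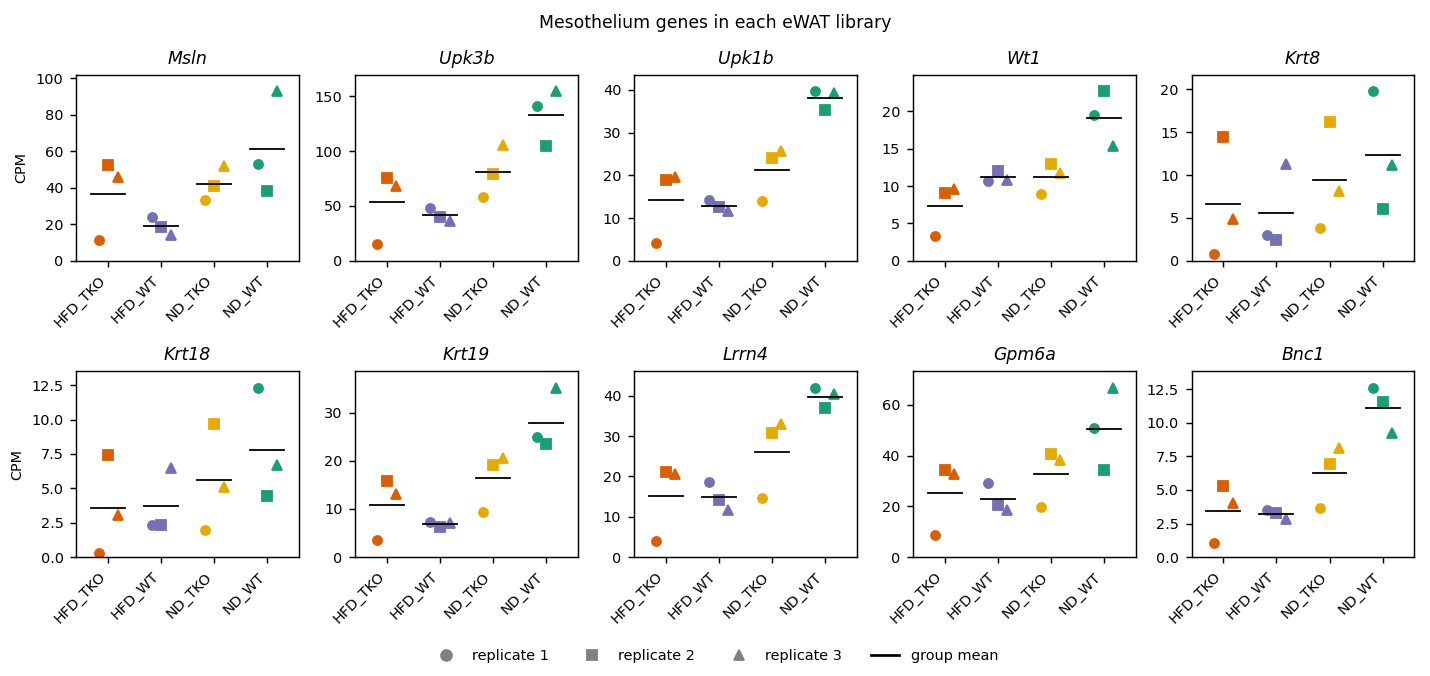
CPM (y axis, from 0, a scale per panel) of the 10 mesothelium genes in the 4 groups (x axis), with 1 symbol shape per replicate number and a bar at the group mean. HFD_TKO replicate 1 (circle) is the lowest library in each panel, and ND_WT has the highest group mean in each.

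Msln, which encodes mesothelin, a glycoprotein anchored at the surface of mesothelial cells (chromosome 17, 25748613 to 25754378 of mm10, the span given by GENCODE M21, as for the genes below), stood at 11.2, 52.2 and 46.0 CPM in HFD_TKO and 23.7, 18.5 and 14.4 CPM in HFD_WT. On the normal diet it stood at 33.2, 41.1 and 51.7 CPM in ND_TKO and 52.8, 38.3 and 92.7 CPM in ND_WT. HFD_WT lay below both ND groups without overlap, while HFD_TKO replicates 2 and 3 lay among the ND libraries. Upk3b, an uroplakin of urothelium that is also a defining gene of mesothelium (chromosome 5, 136038496 to 136046487), was the most abundant of the 10 in CPM. It stood at 15.6, 75.5 and 68.6 CPM in HFD_TKO and 48.3, 39.6 and 36.1 CPM in HFD_WT, and at 58.1, 78.7 and 106 CPM in ND_TKO and 141, 105 and 154 CPM in ND_WT. HFD_WT again lay below both ND groups, and the ND groups overlapped by a single pair of libraries.

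Upk1b, a tetraspanin uroplakin (chromosome 16, 38773184 to 38800328), stood at 4.14, 18.8 and 19.5 CPM in HFD_TKO and 14.3, 12.5 and 11.6 CPM in HFD_WT. On the normal diet it stood at 14.1, 24.0 and 25.7 CPM in ND_TKO and 39.6, 35.4 and 39.3 CPM in ND_WT, and these groups did not overlap. Lrrn4, which encodes a leucine-rich repeat membrane protein (chromosome 2, 132868305 to 132880891), was at 4.0, 21.0 and 20.5 CPM in HFD_TKO, 18.7, 14.1 and 11.6 CPM in HFD_WT, 14.7, 30.7 and 32.9 CPM in ND_TKO and 42.0, 36.9 and 40.4 CPM in ND_WT. Its ND groups did not overlap either, with ND_TKO lower. Gpm6a, a membrane glycoprotein best known from neurons (chromosome 8, 54954843 to 55060871), was at 8.65, 34.4 and 32.7 CPM in HFD_TKO, 29.2, 20.7 and 18.4 CPM in HFD_WT, 19.7, 40.4 and 38.2 CPM in ND_TKO and 50.9, 34.1 and 66.6 CPM in ND_WT. Its ND groups overlapped, because ND_WT replicate 2 lay between ND_TKO replicate 1 and the other ND_TKO libraries. The annotation places 5 further genes inside the Gpm6a span on the same strand, so its reads carry that uncertainty.

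The transcription factor genes had lower mean CPM in each group than the genes described above. Wt1, a zinc finger regulator of mesothelium and its descendants (chromosome 2, 105126529 to 105173616), stood at 3.26, 9.10 and 9.59 CPM in HFD_TKO and 10.7, 12 and 10.9 CPM in HFD_WT. In ND_TKO it stood at 8.91, 12.9 and 11.7 CPM, against 19.5, 22.7 and 15.3 CPM in ND_WT. Every TKO library lay below every WT library of its own diet. Bnc1, the zinc finger protein basonuclin (chromosome 7, 81966672 to 81992292), stood at 1.07, 5.28 and 4.02 CPM in HFD_TKO, 3.48, 3.28 and 2.86 CPM in HFD_WT, 3.65, 6.95 and 8.09 CPM in ND_TKO and 12.6, 11.6 and 9.22 CPM in ND_WT. Its ND groups did not overlap, and its HFD groups did, since HFD_TKO replicate 1 lay below and replicates 2 and 3 above all HFD_WT libraries. A pseudogene on the opposite strand overlaps Bnc1, and whether counting used strand is not given in the sources used here.

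Keratins build the intermediate filaments of epithelial cells, in which a type I chain (Krt18, Krt19) pairs with a type II chain (Krt8). Krt19 (chromosome 11, 100140810 to 100148665) stood at 3.54, 15.9 and 13.0 CPM in HFD_TKO and 7.38, 6.28 and 7.18 CPM in HFD_WT, and at 9.37, 19.1 and 20.6 CPM in ND_TKO and 24.9, 23.5 and 35.1 CPM in ND_WT. Its pattern followed that of the surface genes. Krt8 (chromosome 15, 101996698 to 102004482) stood at 0.745, 14.4 and 4.84 CPM in HFD_TKO and 2.97, 2.48 and 11.3 CPM in HFD_WT, and at 3.83, 16.2 and 8.18 CPM in ND_TKO and 19.7, 5.99 and 11.1 CPM in ND_WT. Krt18 (chromosome 15, 102028180 to 102032027) was at 0.326, 7.40 and 3.06 CPM in HFD_TKO, 2.34, 2.35 and 6.49 CPM in HFD_WT, 1.98, 9.68 and 5.07 CPM in ND_TKO and 12.3, 4.43 and 6.66 CPM in ND_WT. In both genes the highest library of each group was HFD_TKO replicate 2, HFD_WT replicate 3, ND_TKO replicate 2 and ND_WT replicate 1, and all pairs of groups overlapped. A noncoding RNA gene on the opposite strand overlaps Krt8, and a processed Krt8 pseudogene lies on chromosome 7, so reads of Krt8 carry that uncertainty.

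Those 4 libraries, the Epcam-high ones, also held more RNA of several genes of other epithelia. Epcam, an adhesion protein of most epithelia other than mesothelium, had no read in HFD_TKO replicate 1 and stood at 6.02 and 0.229 CPM in the other HFD_TKO libraries, at 0.547, 0.177 and 6.97 CPM in HFD_WT, 0.231, 5.14 and 1.33 CPM in ND_TKO and 7.15, 0.185 and 0.411 CPM in ND_WT. Cdh16, a cadherin of kidney and genital tract epithelium, was at 6.16, 5.84, 5.88 and 7.44 CPM in HFD_TKO replicate 2, HFD_WT replicate 3, ND_TKO replicate 2 and ND_WT replicate 1, and at most 0.889 CPM in the other 8. Cdh1, Cldn3, Cldn7, Pax8 and Adam7, a gene of the epididymal epithelium, were likewise highest in that library of each group, and the splicing regulator gene Esrp1 was in 3 of 4 groups. Other genes of these lists did not follow. The basal keratin gene Krt14 was highest in none of the 4 and lowest of its group in HFD_WT replicate 3 (0.174 CPM). Trp63, a transcription factor gene of basal epithelia, was highest in the Epcam-high library only in HFD_WT (1.56 CPM). In the other groups it was highest in HFD_TKO replicate 1 (2.84 CPM), ND_TKO replicate 3 (4.18 CPM) and ND_WT replicate 2 (6.91 CPM). Rnase10, a gene of the epididymis, was at 0.174 CPM in HFD_WT replicate 3, 0.464 CPM in ND_TKO replicate 2 and 0.0958 CPM in ND_WT replicate 1, the lowest of each group. These ranks rest on few reads: 4 against 5 and 6 in HFD_WT, 10 against 12 and 21 in ND_TKO, and 2 against 5 and 11 in ND_WT. In HFD_TKO Rnase10 was highest in replicate 2 (0.460 CPM), with 10 reads there as in replicate 3. Of the 16 epididymal marker genes of the list, 7 had no read in any library (Crisp4, Lcn5, Lcn9, Lcn10, Adam28, Gpx5 and Spint4), and 4 passed the filter. The list summed to 0.240 to 9.84 CPM in HFD_TKO, 0.280 to 8.49 in HFD_WT, 0.792 to 11.2 in ND_TKO and 0.238 to 13.2 in ND_WT. The 10 genes of other epithelia summed to 3.63 to 15.3 CPM in HFD_TKO, 2.75 to 14.9 in HFD_WT, 4.30 to 15.2 in ND_TKO and 8.13 to 22.1 in ND_WT, with Krt5 at 0 in all libraries. The 7 testis germ cell genes held at most 2 reads in any library. Each group holds 1 such library, and the part of this RNA in the keratin values was not tested. No other member was highest in that library in more than 2 of the 4 groups.

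**Figure D2:**
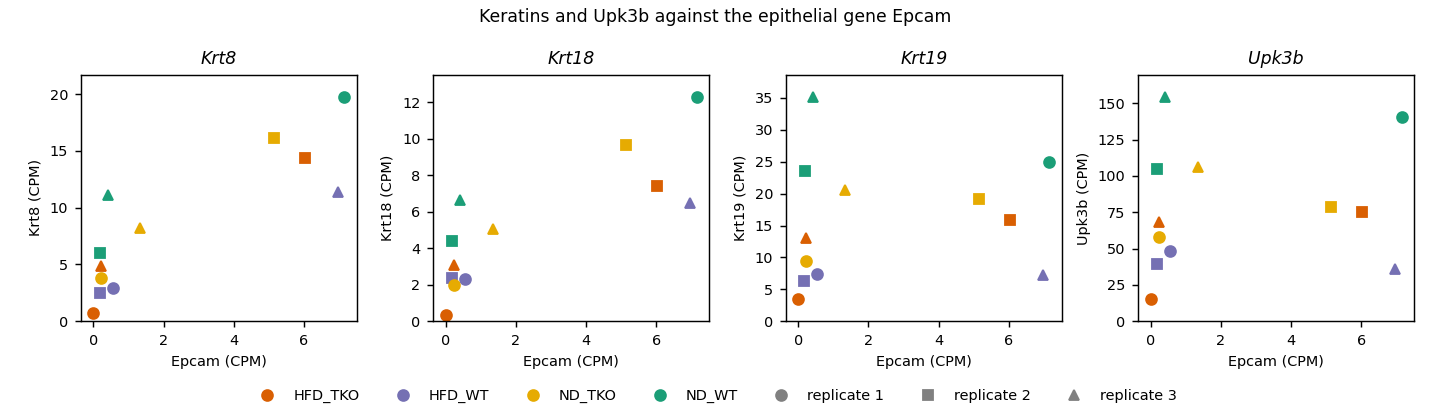
CPM of Krt8, Krt18, Krt19 and Upk3b (y axes, from 0) against CPM of the epithelial gene Epcam (x axis) in the 12 libraries, with colour for the group and symbol shape for the replicate number. The 4 libraries with Epcam above 5 CPM have the highest Krt8 and Krt18 of their groups, which does not hold for Krt19 and Upk3b.

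The promoters of the keratin pair are shown beside those of Upk3b and Lrrn4, since Krt8 and Krt18 followed each other and departed from the surface genes. Krt8 and Krt18 lie 23697 bases apart on chromosome 15, on opposite strands. The 250 bases before each start, from RefSeq on GRCm38.p6 (the assembly behind mm10) and read 5′ to 3′ along the gene's strand, are printed with each CpG dinucleotide, the main site of cytosine methylation, in capitals. They lie at chr15:102004343-102004592 on the minus strand (Krt8), chr15:102027966-102028215 on the plus strand (Krt18), chr5:136038246-136038495 on the plus strand (Upk3b) and chr2:132880863-132881112 on the minus strand (Lrrn4). The windows of Krt8, Krt18 and Lrrn4 reach into the gene spans given above from GENCODE M21, whose starts differ there from those of RefSeq.
Krt8: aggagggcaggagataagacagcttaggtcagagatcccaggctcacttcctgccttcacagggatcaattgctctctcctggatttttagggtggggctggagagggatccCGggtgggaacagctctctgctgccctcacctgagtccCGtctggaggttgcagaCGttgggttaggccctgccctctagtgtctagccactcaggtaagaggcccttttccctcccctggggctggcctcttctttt
Krt18: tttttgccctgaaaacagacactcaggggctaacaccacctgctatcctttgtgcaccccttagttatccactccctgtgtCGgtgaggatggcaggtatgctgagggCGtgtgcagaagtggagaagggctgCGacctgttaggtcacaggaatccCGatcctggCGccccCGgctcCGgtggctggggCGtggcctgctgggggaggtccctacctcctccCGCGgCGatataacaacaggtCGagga
Upk3b: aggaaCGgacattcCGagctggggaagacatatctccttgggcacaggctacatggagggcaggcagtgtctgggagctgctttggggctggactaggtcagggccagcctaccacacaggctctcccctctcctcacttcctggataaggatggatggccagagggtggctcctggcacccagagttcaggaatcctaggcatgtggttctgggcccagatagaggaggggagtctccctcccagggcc
Lrrn4: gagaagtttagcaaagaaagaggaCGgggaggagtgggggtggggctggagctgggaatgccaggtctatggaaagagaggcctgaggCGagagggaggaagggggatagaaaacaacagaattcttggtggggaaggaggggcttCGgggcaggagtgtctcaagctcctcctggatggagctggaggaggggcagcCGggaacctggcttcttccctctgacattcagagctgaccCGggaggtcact

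The Krt8 promoter held 3 CpG and that of Krt18 held 12. Upk3b had 2 and Lrrn4 5, against a median of 6 over 32544 promoter windows of the same length. The table held a promoter for 6 of the 10 genes, and of the others Gpm6a (the first of its 2 starts) had 3 CpG and Bnc1 had 39, more than 98.4% of all windows. The letters CAGGTG, an E-box, were found on either strand 1 time each in the Krt8 and Krt18 windows and in none of the other 4, and 17.3% of all windows hold them. The GC box GGGCGG was found 5 times in Bnc1 and in no other member (33.0% of all windows hold it), and TATAAA 1 time, in Gpm6a (12.3% of all windows). Both strands were searched, and no member's window held more than 1 kind of motif, so none overlapped. No methylation was measured in the data used here.

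Per kilobase of transcript, Upk3b (37.8 ± 7.29 CPM per kb) and Msln (28.3 ± 13.0) had the highest means in ND_WT and did not differ beyond their spread. The next means were those of Upk1b (20.1 ± 1.25), Krt19 (17.7 ± 4.02), Gpm6a (15.7 ± 5.06) and Lrrn4 (10.7 ± 0.701). The spread of Msln reached Upk1b and Krt19, and that of Gpm6a reached Krt19 and Lrrn4, so these neighbours could not be ordered either. Krt8 (6.28 ± 3.55), Wt1 (6.20 ± 1.19) and Krt18 (5.43 ± 2.82) could not be ordered (SD, n = 3). Bnc1 (2.39 ± 0.372) had the lowest mean, which the spread of Krt8 and Krt18 reached. In HFD_TKO the highest means were those of Msln (16.8 ± 10.2 CPM per kb) and Upk3b (15.1 ± 9.29), again within their spread, and Bnc1 (0.744 ± 0.465) was lowest. The spread in HFD_TKO exceeded that of HFD_WT for each of the 10 genes.

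Most members moved together across libraries. HFD_TKO replicate 1, the lowest library for all 10 genes, enters each r below, and no r was computed without it. The members' mean deviation from each gene's mean over the 12 libraries was -1.80 there on the log2 scale. It was 0.28 and -0.05 in HFD_TKO replicates 2 and 3. As a description over 12 libraries that share the scaling of whole tissue, Pearson's r of log2(CPM + 1) between pairs of the 8 genes other than Krt8 and Krt18 had a median of 0.93 (range 0.58 to 0.99), and of 0.92 for deviations from the group means. The lowest pair was Msln with Wt1. Krt8 with Krt18 had an r of 0.98, and either of them with the other 8 a median of 0.75 (range 0.63 to 0.79). Msln with Wt1 thus lay below every such pair, and Wt1 was about as close to the mean of the members as the keratin pair (r of 0.846 for Wt1, 0.846 for Krt8 and 0.875 for Krt18, with each gene part of that mean).

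Mesothelium genes were lower in wild-type fat of mice on the high-fat diet. Of the 10 genes, 6 were lower in HFD_WT than in ND_WT and none higher: Krt19, Upk3b, Msln, Bnc1, Upk1b and Lrrn4. Among all genes tested 20.3% were called lower and 37.8% higher in this comparison. An unadjusted p below 0.05 was found for 8 of the 10 and for 62.6% of all genes. The median change of the 10 genes was -1.45 on the log2(CPM + 1) scale, against 0.13 for all genes. Krt19 averaged 6.95 ± 0.585 CPM in HFD_WT and 27.9 ± 6.34 CPM in ND_WT (SD, n = 3 each, as in the comparisons that follow), with a log2 change -1.84, SE 0.42, adjusted p = 0.0025. Upk3b averaged 41.3 ± 6.25 CPM in HFD_WT and 133 ± 25.7 CPM in ND_WT (log2 change -1.66, SE 0.46, adjusted p = 0.0085), and Msln 18.9 ± 4.68 CPM in HFD_WT and 61.3 ± 28.2 CPM in ND_WT (log2 change -1.58, SE 0.48, adjusted p = 0.014). The changes were -1.52 for Bnc1 (adjusted p = 0.0030), -1.5 for Upk1b (adjusted p = 0.0090) and -1.39 for Lrrn4 (adjusted p = 0.026). Wt1, at 11.2 ± 0.716 CPM in HFD_WT and 19.2 ± 3.68 CPM in ND_WT, had a change of -0.71 (adjusted p = 0.053), and Gpm6a one of -1.09 (adjusted p = 0.056). Both were called with edgeR (adjusted p = 0.014 and 0.019) and without HFD_TKO replicate 1, which enters only the shared estimate of the spread (0.0021 and 0.0072). Krt8 (change -1.12, adjusted p = 0.22) and Krt18 (-0.91, 0.24) did not pass.

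The HFD_WT and ND_WT libraries did not overlap for 8 of the 10 genes, all with HFD_WT lower, against 23.8% of all genes (41.6% lay higher without overlap), and Krt8 and Krt18 were the exceptions. The count of 6 was 2 (Krt19 and Bnc1) without the 4 Epcam-high libraries, where each group keeps 2 libraries, with a median change of -1.34. It was 4 without HFD_WT replicate 3 and 8 without HFD_TKO replicate 1. Of 15597 genes, 2315, 2864 and 3310 were called lower in these fits, in that order, and 4638, 5255 and 6033 higher. Of 10 macrophage genes 9 were higher in HFD_WT, and the list summed to 4819.6 to 5603 CPM in HFD_WT and 743 to 1094 CPM in ND_WT, with none at 0. Trimmed mean (TMM) scaling, which multiplies all genes of a library by the same factor, moved the median of all genes to 0.01 and that of the members to -1.58, with 8 called lower. Of 10 adipocyte genes 9 were lower and 1 higher in HFD_WT, and the list summed to 7883 to 8442 CPM in HFD_WT and 22944 to 29298 CPM in ND_WT. The 8 endothelial genes summed to 787 to 887 CPM in HFD_WT and 745 to 873 CPM in ND_WT. The part of the makeup of the tissue in the result was not tested.

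Of all members, Wt1 had the smallest log2 change between HFD_WT and ND_WT. Relative to the mean of the other members in the same library, leaving out Krt8 and Krt18, Wt1 lay at -1.33 to -0.60 in HFD_TKO and -0.54 to -0.11 in HFD_WT on the log2 scale, and at -1.36 to -0.81 in ND_TKO and -1.56 to -0.56 in ND_WT. All HFD_WT libraries lay above all others on this measure. Msln relative to the other members lay at 1.13 to 1.41 in HFD_TKO and 0.32 to 0.69 in HFD_WT, which did not overlap, and at 0.76 to 1.23 in ND_TKO and 0.28 to 1.32 in ND_WT. These ratios within a library are a description and were not tested. They do not depend on the library total, apart from the added 1 CPM.

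Other genes known from mesothelium, taken as a list of 15, were also mostly lower in WT on the high-fat diet. Muc16 was not analysed here, Calb2 had no read and Upk3bl at most 3 reads in any library, and 12 were tested. Of these, 8 were lower and 1 was higher in HFD_WT than in ND_WT, with a median change of -0.79. Rspo1, a secreted activator of Wnt signalling, averaged 11.7 ± 1.12 CPM in HFD_WT and 35.1 ± 5.66 CPM in ND_WT (log2 change -1.5, SE 0.39, adjusted p = 0.0058). The changes were -1.49 for the membrane protein gene Tmem151a (adjusted p = 0.00045), -1.44 for Nkain4, whose product interacts with the sodium pump (0.0038), and -1.30 for the type II keratin gene Krt7 (0.017). Pkhd1l1 (change -1.44), the transcription factor gene Myrf (-1.01), the tight junction gene Cldn15 (-0.57) and Bcam (-0.56) were the others called lower. The exception was Aldh1a2, which makes retinoic acid and is also expressed in other stromal and immune cells, at 35.4 ± 7.69 CPM in HFD_WT and 17.0 ± 1.86 CPM in ND_WT (log2 change 1.0, SE 0.16, adjusted p = 0.00018). The lubricant gene Prg4 (change -0.25), the protease inhibitor gene Slpi (-0.41) and Dmkn (-0.14) did not pass. Of 12 genes of mesothelial to mesenchymal transition, the loss of epithelial traits in which mesothelium gives rise to fibroblast-like cells, 5 were higher and 2 lower in HFD_WT, near the shares of all genes given above, and many other cells of the pad express them. Of 10 fibroblastic progenitor genes 8 were higher and none was called lower, although Dpp4 of that list lay lower in HFD_WT without overlap (28.9 ± 1.38 CPM in HFD_WT and 47.7 ± 9.77 CPM in ND_WT, adjusted p = 0.053).

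**Figure D3:**
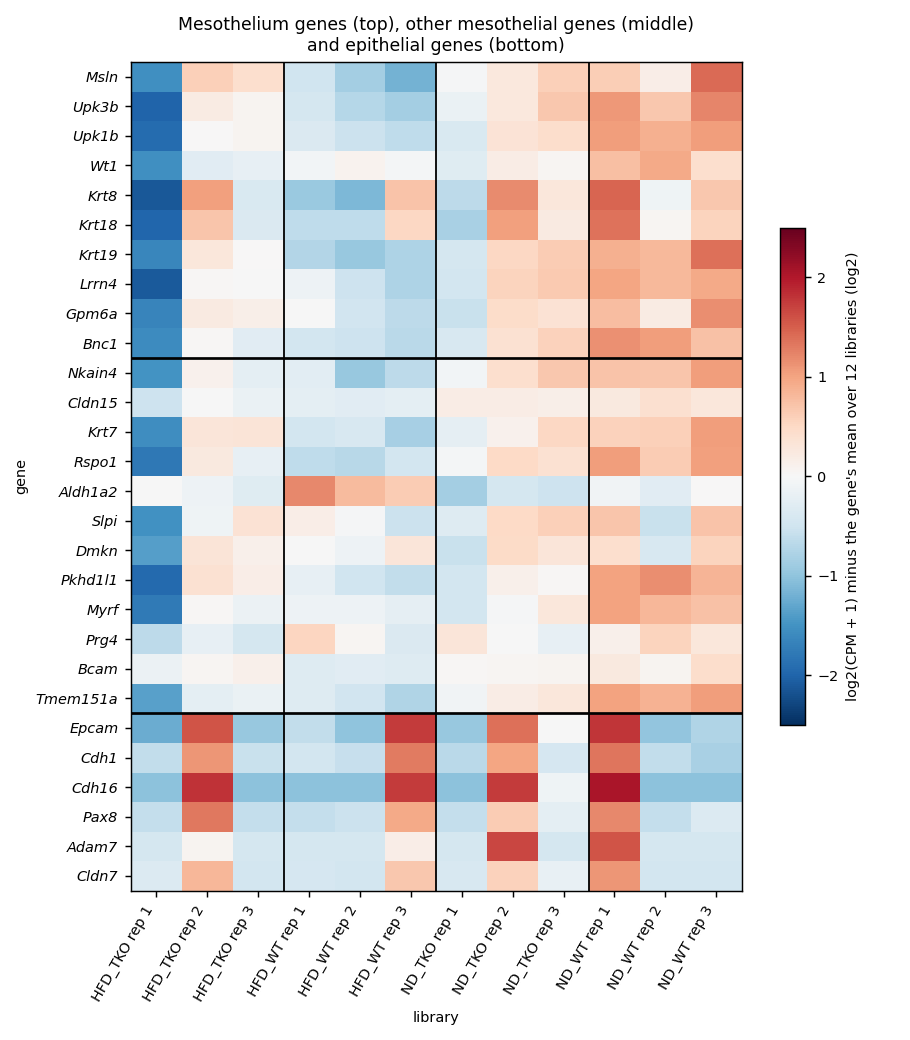
Deviation of log2(CPM + 1) from each gene's mean over the 12 libraries (colour, log2 units) for the 10 mesothelium genes (top block), 12 other mesothelial genes (middle) and 6 epithelial genes (bottom), with libraries in columns. HFD_TKO replicate 1 is blue through most of both mesothelial blocks, and ND_WT is mostly red. The epithelial genes are red in 1 library of each group, where Krt8 and Krt18 are highest. The exception is Adam7, which is near its mean in those of the HFD groups (0.414 CPM in HFD_TKO replicate 2, 0.520 CPM in HFD_WT replicate 3).

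In TKO fat the same diet comparison gave no call with all libraries. None of the 10 genes passed between HFD_TKO and ND_TKO, against 5.9% of all genes called lower and 16.2% higher, and 2 (Wt1 and Bnc1) had an unadjusted p below 0.05, as did 35.9% of all genes. With edgeR and DESeq2 none was called either. The changes of all 10 were negative, with a median of -0.73, and the groups overlapped for every member, against 11.7% of all genes that lay lower without overlap and 27.7% higher. Leaving out HFD_TKO replicate 1, the lowest library for each member, could only raise these changes. Without it the median was -0.10, 4 of 10 changes were positive and none was called. Other libraries moved it the other way: the median was -1.09 without HFD_TKO replicate 2 (unadjusted p below 0.05 for 6 members), -0.90 without HFD_TKO replicate 3 (5 members), -1.04 without ND_TKO replicate 1 (5 members) and -0.94 without the 4 Epcam-high libraries, with no member called. Without both TKO libraries numbered 1 the median was -0.38, and Lrrn4 (-0.59, adjusted p = 0.048) and Bnc1 (-0.60, adjusted p = 0.049) were called lower. In that fit 622 of 15597 genes were called lower and 1646 higher.

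The deviations of same-numbered TKO libraries from their group means correlated over all genes (0.123 to 0.562), and replicate 1 was lowest in both groups for every member. Some differently numbered libraries of other groups correlated as much (0.560 for HFD_TKO replicate 2 with ND_WT replicate 1), so these correlations do not establish pairs. With the replicate number as a block and only these groups fitted, 7 of 10 genes were called lower in HFD_TKO, against 1346 of 15597 genes called lower and 2807 higher in that fit: Lrrn4 (-0.94, adjusted p = 0.014), Bnc1 (-0.79, 0.015), Krt19 (-0.69, 0.024), Krt18 (0.024), Wt1 (0.038), Upk1b (0.041) and Krt8 (0.043). Upk3b, Msln and Gpm6a were not called in that fit (adjusted p = 0.057, 0.29 and 0.058). With the block over all 12 libraries none of the 10 was called. The labels do not say what the shared number stands for, and the count of calls rested on that pairing.

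On the normal diet, mesothelium genes were lower in TKO than in WT by means, without a call. None of the 10 passed, against 5.7% of all genes called in either direction (3.54% lower, 2.16% higher), and with edgeR and DESeq2 none passed either. An unadjusted p below 0.05 was found for Wt1 and Bnc1, and for 22.6% of all genes. All 10 changes were negative, with a median of -0.70, against -0.06 for all genes. Upk1b averaged 21.3 ± 6.28 CPM in ND_TKO and 38.1 ± 2.36 CPM in ND_WT (log2 change -0.86, SE 0.42, adjusted p = 0.25), and Wt1 11.2 ± 2.06 CPM in ND_TKO and 19.2 ± 3.68 CPM in ND_WT (log2 change -0.73, SE 0.29, adjusted p = 0.16). The groups did not overlap for 5 of 10 genes, Lrrn4, Upk1b, Krt19, Wt1 and Bnc1, all lower in ND_TKO, against 15.8% of all genes, while 7.96% lay higher without overlap. Without HFD_TKO replicate 1, which narrows only the shared spread, Upk1b (adjusted p = 0.018) and Wt1 (0.017) were called lower. In that fit 817 of 15597 genes were called lower and 474 higher. Without both TKO libraries numbered 1 the median was -0.38 and Upk1b was called (-0.60, adjusted p = 0.012), against 444 genes called lower and 292 higher. Without the 4 Epcam-high libraries the median was -0.78 and none was called. Of the 12 other mesothelial genes none was called with all libraries, with a median change of -0.47.

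On the high-fat diet the direction of the TKO effect turned on which libraries were kept and on the scale of the fit. With all libraries none of the 10 genes passed, against 46.7% of all genes called, with 31.6% lower and 15.2% higher in HFD_TKO, and with edgeR and DESeq2 none passed either. Wt1 alone had an unadjusted p below 0.05, against 53.4% of all genes. The median change was -0.05, with 3 of 10 positive, and it was 0.03 with TMM scaling, where 6 of 10 were positive. With edgeR on the recovered reads, which compares mean counts and not mean logarithms, the median was 0.26 and 9 of 10 were positive. HFD_TKO replicate 1 held the lowest value of each member, so leaving it out could only raise the HFD_TKO means. Without it the median was 0.56 and 9 of 10 were positive. In that fit 4 were called higher in HFD_TKO, against 2418 of 15597 genes called higher and 4366 lower. The 4 were Msln (1.36, adjusted p = 0.0054), Krt19 (0.96, 0.017), Upk3b (0.80, 0.016) and Upk1b (0.55, 0.047). With all libraries the same genes had changes of 0.68, 0.37, 0.08 and -0.11, and adjusted p between 0.28 and 0.91. In the opposite direction, the median was -0.40 without HFD_TKO replicate 2, -0.29 without HFD_TKO replicate 3 and -0.46 without the 4 Epcam-high libraries, each with 2 of 10 positive. With both TKO libraries numbered 1 left out, Lrrn4 was called higher as well (0.49, adjusted p = 0.031). In that fit 5 of the 10 were called higher, against 2405 of 15597 genes called higher and 4330 lower.

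Wt1 was the exception on this diet. It averaged 7.32 ± 3.52 CPM in HFD_TKO and 11.2 ± 0.716 CPM in HFD_WT (log2 change -0.67, SE 0.29, adjusted p = 0.080), and it was the only member whose HFD_TKO libraries all lay below all HFD_WT libraries, against 38.6% of all genes. Without HFD_TKO replicate 1 its change was -0.24 (adjusted p = 0.29). It was called lower without HFD_TKO replicate 2 (-0.86, adjusted p = 0.045) or replicate 3 (-0.90, 0.035), which leave replicate 1 as one of a pair. Among the 12 other mesothelial genes Aldh1a2 was lower in HFD_TKO (log2 change -1.02, adjusted p = 0.00022) and Bcam, a laminin-binding surface protein also found on vessels, was higher (0.32, 0.015; 0.066 without HFD_TKO replicate 3 and 0.15 without the Epcam-high libraries). Macrophage genes summed to 1072 to 1212 CPM in HFD_TKO and 4819.6 to 5603 CPM in HFD_WT, and their part was not tested.

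**Figure D4:**
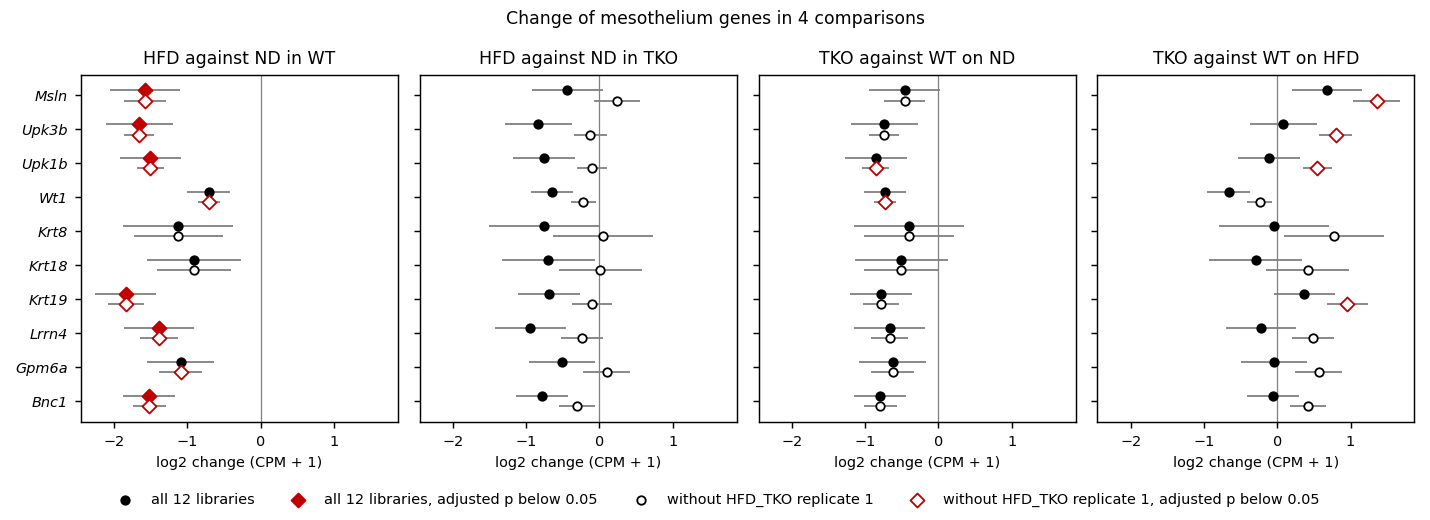
Log2 change of CPM + 1 (x axis) with its SE for the 10 mesothelium genes (y axis) in 4 comparisons, from the fit of all 12 libraries (filled) and without HFD_TKO replicate 1 (open); red diamonds mark an adjusted p below 0.05. All changes of HFD against ND in WT are negative in both fits, and those of TKO against WT on HFD move to the right without that library.

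The difference of the TKO effect between diets, tested as the interaction, was not called for any of the 10 genes, against 28.7% of all genes (9.94% higher), and none had an unadjusted p below 0.05 (39.6% of all genes). DESeq2 called Krt19 (adjusted p = 0.033) and edgeR called none. All 10 values were positive, with a median of 0.66. Leaving out HFD_TKO replicate 1 could again only raise these values, as it is the lowest library for each member. Without it the median was 1.20 and 6 of the 10 were called higher, against 1810 of 15597 genes called higher and 2779 lower. The 6 were Msln (1.82, adjusted p = 0.0087), Krt19 (1.74, 0.0056), Upk3b (1.53, 0.0037), Upk1b (1.40, 0.0031), Bnc1 (1.21, 0.020) and Lrrn4 (1.15, 0.043). Without both TKO libraries numbered 1 the same count was 6, with a median of 0.90, against 1545 genes called higher and 2557 lower. The median was smaller, with no call, without HFD_TKO replicate 2 (0.33, 7 of 10 positive), HFD_TKO replicate 3 (0.36, 9 of 10), ND_TKO replicate 1 (0.35, 7 of 10) or the 4 Epcam-high libraries (0.28, 9 of 10). Wt1 had an interaction of 0.06 (adjusted p = 0.94) and of 0.49 (0.13) without HFD_TKO replicate 1. Bcam was called among the other mesothelial genes (0.52, adjusted p = 0.012).

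The 10 genes outside the list whose levels were most like the mean of the members over the 12 libraries were Rspo1, which is also in the list of other mesothelial genes, the potassium channel gene Kcnd3, Fmod, Wnt2b, Dpp4, Cdh3 (P-cadherin), Ildr2, the basement membrane gene Fras1, the proteoglycan gene Spock2 and Asb13. Likeness was Pearson's r of log2(CPM + 1), a description over libraries that share their tissue and scaling, and it ranged from 0.955 (Asb13) to 0.984 (Rspo1); Spearman's rho ranged from 0.888 (Dpp4) to 0.986 (Rspo1). For deviations from the group means, which leave out the differences between groups, r was between 0.928 (Cdh3) and 0.981 (Ildr2). Rspo1 stood at 4.56, 21.6 and 15.6 CPM in HFD_TKO, 11.3, 10.8 and 13.0 CPM in HFD_WT, 17.5, 26.1 and 23.9 CPM in ND_TKO and 38.7, 28.6 and 38.1 CPM in ND_WT. Fmod, which encodes the collagen-binding proteoglycan fibromodulin, stood at 16.1, 54.8 and 44.1 CPM in HFD_TKO, 49.6, 44.9 and 38.1 CPM in HFD_WT, 44.5, 66.4 and 76.9 CPM in ND_TKO and 119, 92.7 and 122 CPM in ND_WT. Wnt2b, a Wnt ligand, stood at 2.09, 11.4 and 7.95 CPM in HFD_TKO, 9.41, 8.10 and 8.27 CPM in HFD_WT, 8.63, 17.2 and 18.4 CPM in ND_TKO and 31.8, 24.7 and 22.5 CPM in ND_WT. All 3 had their lowest value in HFD_TKO replicate 1, as the members did, and likeness was not computed without that library. Dpp4, a surface peptidase used as a marker of fibroblastic progenitors, was at 16.9, 38.9 and 36.7 CPM in HFD_TKO, 30.1, 27.4 and 29.3 CPM in HFD_WT, 24.4, 38.3 and 40.1 CPM in ND_TKO and 48.6, 37.4 and 56.9 CPM in ND_WT, and it belongs to the progenitor list named above. Among the members themselves Upk1b, Upk3b, Lrrn4 and Krt19 ranked within the first 6 of all tested genes on this measure, of which they are part, and Krt8 and Wt1 ranked lowest of the 10.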

How the data were processed

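Transcript levels of eWAT were deposited as CPM, 1 column per library, per the file headers, which name them raw CPM. Per the submitters' processing notes, the tools were STAR 2.7.3a, featureCounts 2.0.0 and DESeq2, with the build mm10. Not given in the sources used here were the annotation release, strand setting and treatment of multi-mapping reads. With an offset of 0.01 read, 100% of values in every library were whole multiples of 1 read (tolerance 0.05), so reads were recovered: 20973140 to 25606629 per library. A count of 0 allows up to 3 reads, 0.117 to 0.143 CPM, for counting error only. The 3 genes without symbol (at most 0.0679% of CPM) were left out.

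The test was limma 3.58.1 (R 4.3.3) on log2(CPM + 1), with a trend of variance over level, 1 mean per group over all 12 libraries, with p-values adjusted by Benjamini-Hochberg over 15597 genes and called at 0.05; it was tested on simulated data. Fold changes on this scale understate low genes. Groups came from titles, columns from the library names in the labels. Alternatives were pseudocounts of 0.5 and 5, no filter and a filter of 2 CPM, TMM, edgeR 4.0.16 and DESeq2 1.42.0 on recovered reads, a replicate block, only the compared groups, and each library left out. The deviations of same-numbered libraries from their group means correlated at 0.392, 0.562 and 0.123 between HFD_TKO and ND_TKO. All were above 0.1, so a fit of only these groups with the replicate number as a block was added after the data were seen. The main fit has no block. In no other comparison were all 3 above 0.1. Differently numbered libraries of HFD_TKO and ND_TKO correlated at -0.528 to 0.114. Across other groups such values reached 0.560 (HFD_TKO replicate 2 with ND_WT replicate 1) and 0.510 (HFD_TKO replicate 2 with HFD_WT replicate 3), between Epcam-high libraries. The value of 0.562 also joins Epcam-high libraries, so these correlations do not establish pairs. The members, lists, tests and named genes (all members, list members called or defining a cell type, and the 10 most like the members) were chosen with earlier results of these data known. Lengths are those of the transcript that GENCODE M21 (mm10) pairs with the listed RefSeq accession.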

Additional observations from a re-analysis of the deposited data

Results flagged for a closer look

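Bcam, from the list of other mesothelial genes, was flagged because its TKO effect differed between diets by the interaction test (0.52, SE 0.13, adjusted p = 0.012). It was the 1 gene called of the 12 tested in that list, against 28.7% of all genes (9.94% higher). A call in this test was thus not particular to Bcam. It stood at 58.1, 67.0 and 70.5 CPM in HFD_TKO and 51.4, 52.7 and 51.6 CPM in HFD_WT, and at 65.9, 67.0 and 68.0 CPM in ND_TKO and 76.4, 68.0 and 88.2 CPM in ND_WT, so all TKO libraries lay above all WT libraries on HFD, and none lay above any WT library on ND, where the highest ND_TKO and the lowest ND_WT library were nearly equal. The interaction was called in each other setting tried and not without the 4 libraries with more than 2 CPM of Epcam (adjusted p = 0.16). Groups of 3 libraries are too small for a test of single outlying values.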

How the results depend on the processing

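The count of members called was 6 for HFD against ND in WT and 0 in the other comparisons. For HFD against ND in WT it lay between 4 and 8 when single libraries were left out, and was 2 without the 4 Epcam-high libraries, all lower. For TKO against WT it lay between 0 and 4 on HFD and between 0 and 2 on ND when single libraries were left out, and was 5 on HFD and 1 on ND without both TKO libraries numbered 1. For the interaction it lay between 0 and 6 when single libraries were left out, was 6 without both TKO libraries numbered 1, and was 1 with DESeq2. For HFD against ND in TKO it stayed at 0 when single libraries were left out, was 2 without both TKO libraries numbered 1, and 7 with a replicate block and only these groups fitted. With a replicate block over all 12 libraries 7 members were called for HFD against ND in WT and 0 in every other comparison. The TKO effect on HFD turned round for Upk1b (-0.45 to 0.55 when single libraries were left out, the highest without HFD_TKO replicate 1, and 0.55 without both TKO libraries numbered 1, against -0.11), Lrrn4 (0.49 without both, against -0.22) and Pkhd1l1 (-0.46 to 0.70, the highest without HFD_TKO replicate 1, and 0.70 without both, against -0.03). The settings that leave out more than 1 library, and the block on only 2 groups, were chosen after the data were seen. Over every member, comparison and setting, 1032 values kept their direction and side of the threshold, 54 passed it only in the other setting, 10 lost it, 51 changed sign without a call and 3 turned round. Over all genes, calls of TKO against WT on ND moved from 889 to between 350 and 1853 when single libraries were left out, to 280 with only these groups fitted, to 72 without the Epcam-high libraries and to 1395 with DESeq2. Those of HFD against ND in TKO moved from 3446 to 1716 without ND_TKO replicate 3, and those of the interaction from 4476 to 1758 without the Epcam-high libraries. Precision was set by 3 libraries a group, with SEs of 0.29 to 0.75 for HFD against ND in WT. The lowest count of a member was 7 reads (Krt18, HFD_TKO replicate 1).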
